A study of Saccharomyces cerevisiae with 40 samples.

Results

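Budding yeast populations from different starting lines were carried through 1000 generations at 39 °C on minimal medium, and transcript levels at the end were compared between them. The H2 line, a diploid population that had already passed 450 generations of abruptly applied heat before the 1000 generations, had 2 arrays. The trisomic descent, founded by an unevolved clone that carried 3 copies of chromosome III and had seen no earlier heat phase, also had 2 arrays. These 4 arrays, chosen by their labelled condition, were set against each other out of 40 in the series, and the diploid ancestor on minimal medium, with 1 array and no evolution, served as the common point of reference. A comparison of the same lines outside the regime used 4 arrays of H2 after 450 generations of heat and 600 generations at 30 °C, and 1 array of the unevolved trisomic clone, which the labels call mono-clonal. Ranks and single readings were also set beside ancestor arrays of other sets, 2 diploid with no medium named and 2 haploid. Every population was given 18 generations without stress and harvested in mid log phase. H2 is 1 line of the abrupt heat regime. The labels do not name the medium of those 18 generations for the evolved arrays, so a difference in medium at harvest and a difference between the lines cannot be told apart.

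Cells on minimal medium have to make most of their amino acids themselves. The transcription activator Gcn4 drives many amino acid synthesis genes when amino acids run short, and genes of a single pathway have activators of their own on top of it. Msn2 and Msn4 switch on a broad set of protective genes in general stress, and Hsf1 maintains the chaperones that fold heat-damaged proteins. An extra chromosome usually raises the transcripts of nearly all of its genes.

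Values were log2 expression made with RMA, on which a difference of 1 is a 2-fold change. A level on this scale has no fixed zero, so differences were taken for each gene between arrays. Only the ranks within an array and the background cut set a gene against other probe sets. Of 5449 genes with a named probe set, 5335 rose above the background of other-species probe sets, 4.91 to 4.98 on the minimal-medium arrays, on at least 2 arrays and were tested. Over these genes the H2 arrays differed from each other with a standard deviation of 0.202 and the trisomic arrays with 0.304. Arrays of different lines differed by 0.555 to 0.621. The H2 arrays stood 0.788 to 0.821 from the ancestor and the trisomic arrays 0.463 to 0.511. Nothing in the labels says whether the 2 arrays of a line came from separate populations. The spread between them may thus not be that between populations. The main fit pooled the spread of all diploid groups, with 9 residual degrees of freedom, against 2 for the compared arrays alone. Its tests and standard errors therefore rest largely on the spread in other groups. The small number of arrays limits the precision of the tests. In bulk RNA, fewer cells that express a gene and less of its RNA per cell cannot be told apart.

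The lines that had shared the regime differed over a large part of the genome. With limma and Benjamini-Hochberg adjustment at 0.05, 2110 genes were called (39.6% of those tested), 1053 higher (19.7%) and 1057 lower (19.8%) in H2. A fit to the 4 arrays alone, without the spread of the other diploid groups, called 797 (15.1%), 327 higher (6.19%) and 470 lower (8.90%), and 790 of these were among the 2110. Without a term for the normalization set, 224 were called. The large differences lay more often on the lower side. Of 312 called genes that differed over 2-fold, 109 were higher and 203 lower, and of 80 over 4-fold, 24 were higher and 56 lower. The arrays of the 2 lines did not overlap for 3173 genes (59.5%).

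In most of these genes H2 stood farther from the ancestor array. H2 minus ancestor called 3092 genes (58.0%), 1633 higher (30.6%) and 1459 lower (27.3%). The trisomic descent minus ancestor called 1804 (33.8%), 998 higher (18.7%) and 806 lower (15.1%), against the same single ancestor array. Among the 2110 genes H2 was the farther line from the ancestor in 1864 (88.3%), among the 80 genes over 4-fold in 72. The ancestor lay between the lines for 276 genes.

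The 15 genes with the largest deficits in H2 fell by between 2.86 and 8.29 on the log2 scale, and all 15 were also called against the ancestor. MET17 on chromosome XII, which encodes the enzyme that joins sulfide to an O-acetylated homoserine to give homocysteine, read 4.86 and 4.90 in H2, against 13.21 and 13.13 in the trisomic descent and 12.65 in the ancestor. Both H2 arrays were below background and far under all the others. The difference was −8.29 ± 0.09 (standard error, limma adjusted p = 1.0e-15), and with H2 at the floor the transcript was at least 295-fold lower.

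Vitamin B6 genes gave the next block. SNO1, a subunit of the glutamine amidotransferase complex that makes pyridoxal phosphate, read 6.91 and 7.29 in H2, against 12.16 and 11.97 in the trisomic descent and 12.44 in the ancestor. SNZ1, its partner subunit, read 10.08 and 10.52 in H2, against 13.74 and 13.49 in the trisomic descent and 13.94 in the ancestor. In both genes the H2 arrays were low and the trisomic arrays close to the ancestor. The differences were −4.96 ± 0.14 for SNO1 and −3.31 ± 0.12 for SNZ1 (limma adjusted p = 2.7e-11 and 1.9e-10). CTF13, a kinetochore protein gene that lies next to SNO1 on chromosome XIII, was below background in H2 at 4.71 and 4.87, against 8.01 and 7.62 in the trisomic descent and 8.11 in the ancestor, at least 7.21-fold lower. The tested neighbours beyond this block, UTP15 on the CTF13 side and MTG1 on the SNZ1 side, differed by 0.07 and 0.32 and were not called. They and the other neighbours given here were chosen after the values were seen.

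The further members of this group had varied roles. SRL4 read 5.23 and 5.45 in H2, against 10.49 and 10.46 in the trisomic descent and 11.01 in the ancestor, a difference of −5.13 ± 0.17. RTC2, a vacuolar transporter of cationic amino acids, differed by −4.40 ± 0.25, and FMP23 by −4.09 ± 0.19. ZPS1, a cell wall protein induced when zinc is short, differed by −3.98 ± 0.22. ARO9, the aromatic aminotransferase induced by aromatic amino acids, differed by −3.30 ± 0.18. TMT1, a methyltransferase of trans-aconitate, YHI9, YAT2, a carnitine acetyltransferase, and PEX21, a peroxisomal import factor, differed by −3.68, −3.22, −3.06 and −2.86. Arrays that did not overlap between the lines were a condition for these genes. Of the 15 largest deficits, 11 were not called between the trisomic descent and the ancestor.

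**Figure D1:**
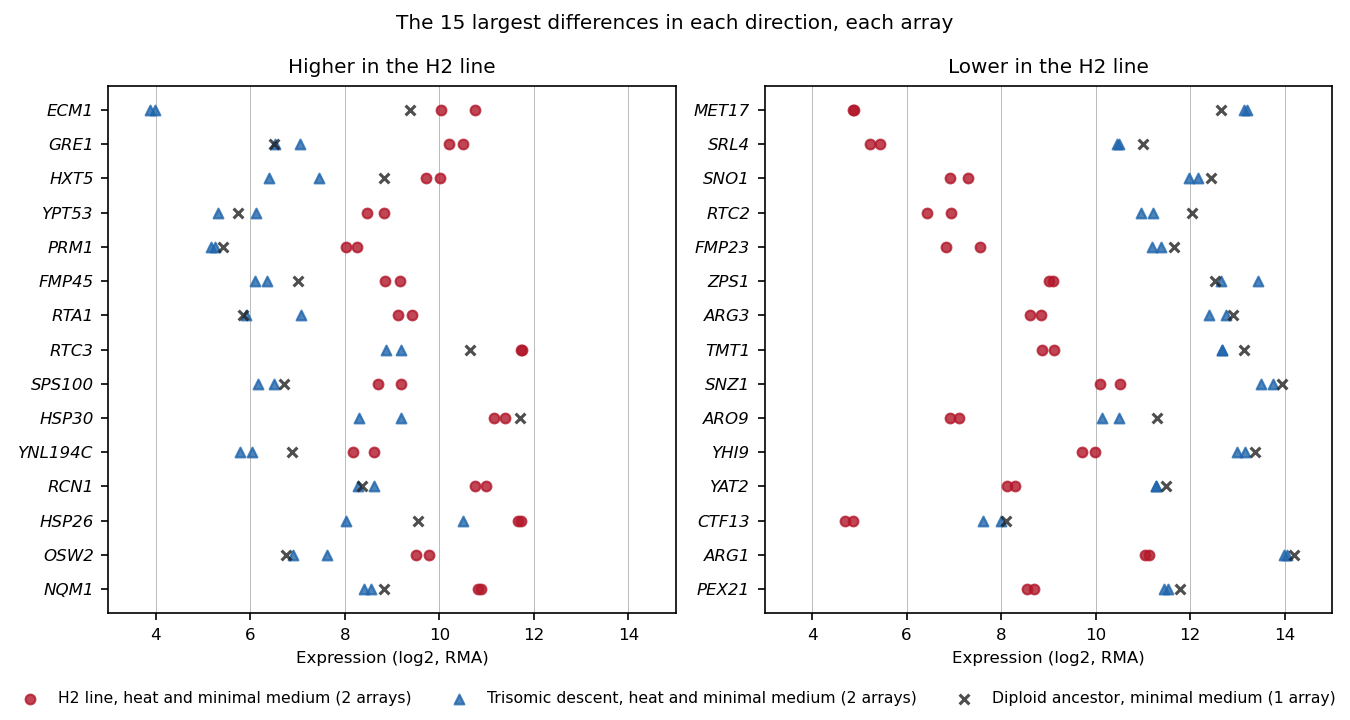
Expression (log2, RMA) of the 15 genes with the largest positive difference and the 15 with the largest negative difference, H2 minus trisomic descent, one mark per array. On the right the H2 circles lie at far lower levels than the trisomic triangles, which sit nearer to the ancestor cross. On the left the trisomic HSP26 marks are spread between 8.02 and 10.50.

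Most genes on the lists of arginine, lysine, and histidine, branched-chain and aromatic amino acid synthesis were lower in H2. Of 59 tested genes on these 3 lists, 51 were lower and 4 higher. Over all genes tested, 19.7% were higher and 19.8% lower, the shares for this and the later lists. The sulfur list, given apart below, did not move one way, and the arginine list also holds genes outside synthesis. The lysine genes were lower in 9 of 9, with a median difference of −1.02, against a median of 0.02 over all genes tested. Relative to the ancestor array the lysine median was −1.59 in H2 and −0.38 in the trisomic descent. LYS1, which makes lysine in the last step, read 9.77 and 9.67 in H2, against 12.48 and 12.42 in the trisomic descent and 12.75 in the ancestor. LYS20, one of the isozymes of the first step, read 11.32 and 11.45 in H2, against 13.52 and 13.52 in the trisomic descent and 13.92 in the ancestor. Both H2 arrays were well below the others, with differences of −2.73 ± 0.09 and −2.14 ± 0.13 (limma adjusted p = 1.0e-10 and 2.6e-08).

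The arginine list was lower in its synthesis genes. Of 13 tested genes 9 were lower and 3 higher, with a median of −1.60. ARG3, ornithine carbamoyltransferase, read 8.62 and 8.85 in H2, against 12.75 and 12.39 in the trisomic descent and 12.90 in the ancestor. ARG1, argininosuccinate synthetase, read 11.05 and 11.13 in H2, against 13.98 and 14.05 in the trisomic descent and 14.20 in the ancestor. These genes were low in both H2 arrays, by −3.84 ± 0.22 and −2.93 ± 0.25. ARG7 and ARG4, for an early and the last step of synthesis, differed by −2.30 and −1.62. The 3 higher genes were CAR1 and CAR2, which break arginine down, at 0.57 ± 0.15 and 1.49 ± 0.21, and ARG82, an inositol polyphosphate kinase, at 0.33 ± 0.12. They are named because they make up the count. With the 4 arrays alone 2 of these 3 were called and the 9 lower genes were called too. Without H2 replicate 2 the higher count was 1.

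Histidine, branched-chain and aromatic synthesis genes were lower in 33 and higher in 1 of 37 tested, with a median of −0.79. That median was −1.09 in H2 and −0.30 in the trisomic descent relative to the ancestor. HIS5 read 9.97 and 10.09 in H2, against 12.23 and 12.21 in the trisomic descent and 12.54 in the ancestor, a difference of −2.19 ± 0.08. HIS4, which lies on chromosome III and catalyses several steps of histidine synthesis, differed by −2.02 ± 0.06. The lines did not overlap in either gene, as in 59.5% of all genes tested, and both genes were picked by p. With the 4 arrays alone 32 of the list were called, all lower.

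Sulfur genes did not move one way: 15 were higher and 10 lower of 34 tested, with a median of 0.25. With the 4 arrays alone 11 were higher and 8 lower. STR2, which starts the route from cysteine back to homocysteine, read 9.28 and 9.26 in H2, against 11.65 and 11.86 in the trisomic descent and 12.48 in the ancestor, a difference of −2.49 ± 0.09 (limma adjusted p = 2.8e-10). MET17 is the other named member. Both were picked by p and were lower, while more of the list was higher.

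Cofactor genes were lower in 14 and higher in 2 of 23 tested on the list of biotin, pyridoxine and NAD synthesis, with a median of −0.34. BIO5, which carries a biotin precursor into the cell, read 6.16 and 6.32 in H2, against 8.64 and 8.61 in the trisomic descent and 8.81 in the ancestor, a difference of −2.39 ± 0.10. VHT1, the biotin transporter, differed by −1.72 ± 0.09. Both genes also stand on the iron list, which had 13 lower and 4 higher of 31 (54.8% called, against 39.6% of all genes). The higher count was 2 without H2 replicate 2 and 1 without trisomic replicate 1. Thiamine genes were lower in 9 and higher in 2 of 17 (64.7% called). Among them were the transporter gene THI72 at −1.54 ± 0.14 and the activator gene THI2 at −0.95 ± 0.11.

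Aromatic amino acid breakdown genes were lower in 7 and higher in 2 of 10. PDC6, a minor pyruvate decarboxylase that stood on this list and on that of fermentation, read 8.48 and 8.70 in H2, against 6.61 and 6.52 in the trisomic descent and 7.09 in the ancestor, and was higher in H2 by 2.02 ± 0.14. ADH5, a minor alcohol dehydrogenase, differed by −2.59 ± 0.08, and ALD6, which makes acetate in the cytosol, by 1.13 ± 0.09. Glycolysis and fermentation genes as a list were higher in 11 and lower in 2 of 24 (54.2% called). Gluconeogenesis genes, to which ALD6 belongs here, were higher in 3 and lower in 10 of 25 (52%, against 39.6% of all genes). With the 4 arrays alone these counts were 5 higher and 2 lower, and 2 higher and 7 lower. The higher count of gluconeogenesis genes was 5 without trisomic replicate 2.

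General stress genes formed the main block on the higher side. Of 39 tested genes on the Msn2 and Msn4 list, 25 were higher and none lower at the threshold, and 1 was lower at an unadjusted p under 0.05. The median difference was 1.06, from medians of 0.57 in H2 and −0.29 in the trisomic descent relative to the ancestor. With the 4 arrays alone 19 were higher. GRE1, a hydrophilin, read 10.50 and 10.21 in H2, against 6.52 and 7.04 in the trisomic descent and 6.50 in the ancestor. The H2 arrays were far above the rest, by 3.57 ± 0.17 (limma adjusted p = 2.8e-09). NQM1, a transaldolase, read 10.82 and 10.89 in H2, against 8.41 and 8.55 in the trisomic descent and 8.82 in the ancestor, a difference of 2.37 ± 0.15. SPI1, a cell wall protein, stood highest in the ancestor, with 11.75 and 11.30 in H2, 9.75 and 9.67 in the trisomic descent and 12.36 in the ancestor. Its difference between the lines was 1.82 ± 0.19.

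The other genes among the 15 largest excesses had varied roles. HXT5, a hexose transporter of slowly growing cells, read 10.03 and 9.71 in H2, against 6.39 and 7.46 in the trisomic descent and 8.84 in the ancestor. The ancestor lay between the lines. FMP45 and YNL194C, related membrane proteins of the SUR7 family, differed by 2.78 ± 0.15 and 2.48 ± 0.23. SPS100 and OSW2, spore wall genes, differed by 2.61 ± 0.17 and 2.38 ± 0.19. PRM1, which acts in membrane fusion during mating, read 8.03 and 8.26 in H2, against 5.26 and 5.18 in the trisomic descent and 5.43 in the ancestor. It differed by 2.92 ± 0.14, and YPT53, an endosomal Rab GTPase, by 2.93 ± 0.26. RCN1, a regulator of calcineurin, differed by 2.44 ± 0.13, RTA1 by 2.78 ± 0.25 and RTC3 by 2.72 ± 0.35.

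ECM1, a factor of large ribosomal subunit assembly and export, had the largest excess, with the trisomic descent at background. It read 10.04 and 10.75 in H2, against 3.99 and 3.88 in the trisomic descent and 9.39 in the ancestor, and both trisomic arrays were below background. H2 was at least 44.4-fold higher (6.46 ± 0.17, limma adjusted p = 1.7e-11). CNE1, the adjacent tested gene on chromosome I, which encodes yeast calnexin, was chosen after its values were seen. It read 9.15 and 9.27 in H2, against 8.19 and 8.61 in the trisomic descent and 9.20 in the ancestor, a difference of 0.81 ± 0.11. On the other side BDH1 differed by −0.12 and was not called, and the next genes, BDH2 and GDH3, were higher in H2 by 1.28 ± 0.35 and 0.60 ± 0.13. In all, 20 called genes were below background in one line and measured in the other with a bound of at least 1-fold, 9 of them in H2 and 11 in the trisomic descent.

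Chaperone genes were higher in 18 and lower in 3 of 33, with a median of 0.26. The count fell to 9 higher with the 4 arrays alone, to 11 without H2 replicate 2 and to 11 without trisomic replicate 1. HSP26, a small heat shock protein that is also a general stress gene, read 11.66 and 11.73 in H2, against 8.02 and 10.50 in the trisomic descent and 9.55 in the ancestor. The trisomic arrays stood on either side of the ancestor, and HSP26 was the one gene of the 30 largest differences not called with the 4 arrays alone (2.43 ± 0.63, limma adjusted p = 0.0081, and 0.089 with the 4 arrays alone). SBA1, a cochaperone of Hsp90, was higher by 0.66 ± 0.11, and ECM10, a minor mitochondrial Hsp70, was lower by −0.75 ± 0.12. HSP30, a membrane protein that restrains the proton pump, lies on chromosome III and read 11.39 and 11.16 in H2, against 8.29 and 9.19 in the trisomic descent and 11.71 in the ancestor. H2 was near the ancestor and the trisomic descent low, a difference of 2.53 ± 0.30.

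Oxidative stress genes were higher in 16 and lower in 3 of 30, with 6 higher with the 4 arrays alone and 9 without H2 replicate 1. TSA2, a peroxiredoxin, read 9.30 and 9.29 in H2, against 7.27 and 7.28 in the trisomic descent and 7.75 in the ancestor, a difference of 2.02 ± 0.08. ATR1, a multidrug exporter on the same list, went the other way at −2.22 ± 0.16. SNQ2, another exporter, differed by −1.56 ± 0.12 among multidrug resistance genes, which were lower in 8 and higher in 3 of 16.

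Proliferation genes had positive medians against the ancestor array in both lines, larger in H2. The list of mitosis and daughter-cell genes was higher in 22 and lower in 2 of 28, with a median of 0.65, and its median relative to the ancestor was 1.37 in H2 and 0.78 in the trisomic descent. BUD4, which marks the bud site, read 9.83 and 9.73 in H2, against 8.66 and 8.81 in the trisomic descent and 7.38 in the ancestor. DSE3, a daughter-cell gene, read 10.96 and 10.96 in H2, against 10.04 and 10.09 in the trisomic descent and 9.33 in the ancestor. The 3 groups were ordered the same way in both genes, and H2 exceeded the trisomic descent by 1.05 ± 0.08 and 0.89 ± 0.08. With the 4 arrays alone 13 of the list were higher.

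Histone genes were higher in 9 of 9, with a median of 0.33. The linker histone gene HHO1 differed by 0.82 ± 0.07 and HTA2 by 0.38 ± 0.06. G1/S and DNA replication genes were higher in 20 and lower in 3 of 38, CDC21, thymidylate synthase, by 0.60 ± 0.07 and TOS4 by 0.63 ± 0.08. With the 4 arrays alone these counts were 3 and 7 higher. The lower count of G1/S genes was 1 without H2 replicate 2 and 1 without trisomic replicate 1. Relative to the ancestor, the histone median was 1.12 in H2 and 0.80 in the trisomic descent, and the G1/S median 0.91 in H2 and 0.69 in the trisomic descent.

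Inositol and phospholipid genes were higher in 17 and lower in 3 of 24, with a median of 0.47 and 11 higher with the 4 arrays alone. CKI1, choline kinase, read 9.91 and 9.79 in H2, against 8.79 and 8.86 in the trisomic descent and 8.47 in the ancestor, a difference of 1.02 ± 0.09. PSD1, mitochondrial phosphatidylserine decarboxylase, differed by 0.91 ± 0.07. The phosphate regulon was higher in 13 and lower in 3 of 29 (55.2% called, against 39.6% of all genes). With the 4 arrays alone 6 of its genes were higher. Its lower count was 1 without trisomic replicate 1 and 6 without trisomic replicate 2. Its member SPL2, an inhibitor of low-affinity phosphate uptake, read 8.18 and 8.29 in H2, against 6.90 and 7.08 in the trisomic descent and 9.22 in the ancestor. Here both lines lay under the ancestor and the trisomic descent was lowest, so that H2 stood higher by 1.24 ± 0.11.

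Proteasome genes were higher in 23 of 36 by small amounts, a median of 0.25, of which RPN10 at 0.48 ± 0.05 and RPN6 at 0.47 ± 0.07 are examples. Only 2 were called with the 4 arrays alone. Ribosomal protein genes were higher in 19 and lower in 3 of 127, and ribosome biogenesis genes were higher in 8 of 70, both at or under the background share. For ribosomal proteins 3 were higher without H2 replicate 2, 11 without trisomic replicate 1 and 39 without trisomic replicate 2, and the lower count was 0 without H2 replicate 1 and 1 without trisomic replicate 1. For ribosome biogenesis 22 were higher without H2 replicate 1, 2 without H2 replicate 2 and 4 without trisomic replicate 1. Respiratory chain and ATP synthase genes were lower in 12 and higher in 1 of 44, COX9 by −0.63 ± 0.11 and COX6 by −0.56 ± 0.10. In all 29.5% of that list was called, against 39.6% of all genes. That count was 2 lower with the 4 arrays alone and 2 lower without H2 replicate 2.

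Of 47 gene lists, 16 had a majority of their tested genes called one way, 8 higher and 8 lower. That number was 4 with the 4 arrays alone, 8 without H2 replicate 2 and 10 without trisomic replicate 1. Leaving out H2 replicate 1, H2 replicate 2, trisomic replicate 1 or trisomic replicate 2 moved the medians of 11, 7, 7 and 13 of the 47 lists by more than the spread between replicates.

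**Figure D2:**
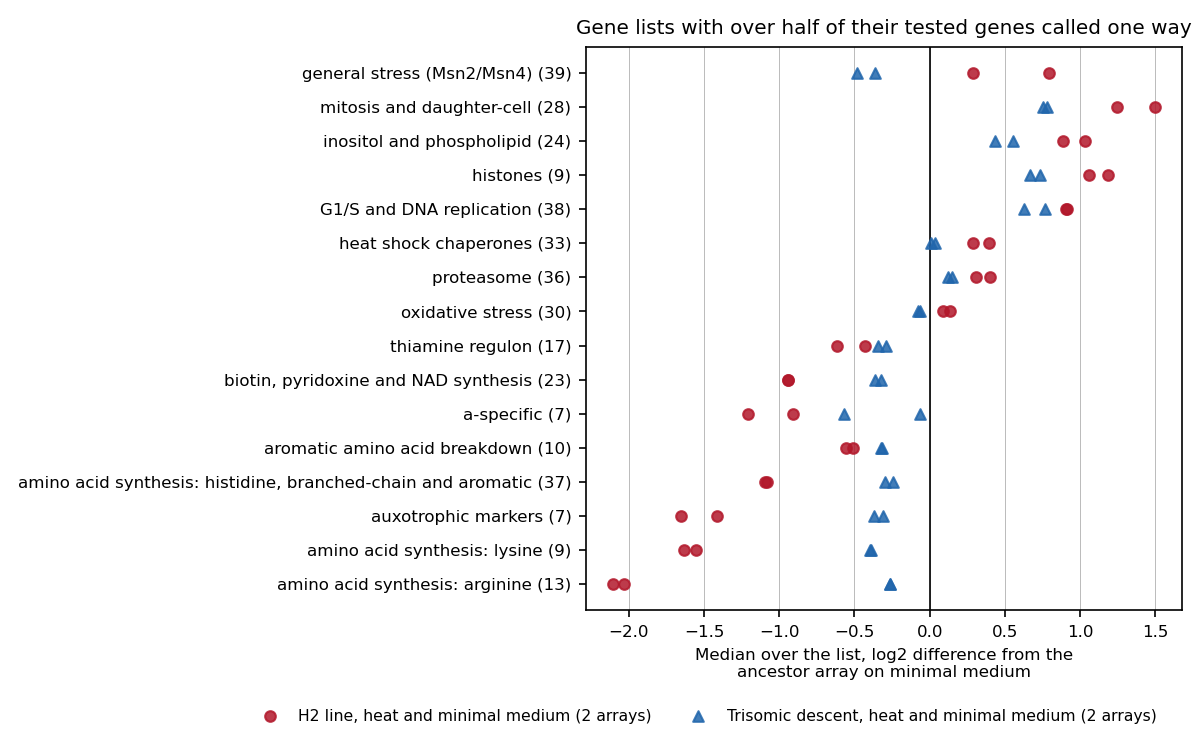
Median over each gene list of the log2 difference from the ancestor array on minimal medium, for each H2 array (circles) and each trisomic array (triangles). The lists shown are the 16 with a majority of their tested genes called one way, with the number of tested genes in brackets. The H2 circles reach down to −2.10 for arginine genes, and the trisomic triangles stay between −0.57 and 0.78.

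Ranks of the lists within each array were also set beside arrays of other normalization sets, whose labels name no medium. The sets, as inferred, were normalized apart, so ranks may depend on the set, and this was not tested. The ranks were compared between arrays for the same list, never between lists. The median percentile of the arginine list among the 5335 genes was 49.9 and 55.0 in H2, 90.1 and 90.1 in the trisomic descent, and 91.3 in the ancestor on minimal medium. It was 45.6 and 66.9 in the diploid ancestor arrays with no medium named, 45.0 to 59.4 in H2 relaxed at 30 °C and 59.0 in the trisomic clone. The lysine list stood at 71.7 and 71.8 in H2, 90.7 and 90.8 in the trisomic descent and 92.9 in the ancestor on minimal medium, against 59.2 and 76.5 in the ancestor with no medium named. For mitosis and daughter-cell genes the percentiles were 55.7 and 58.8 in H2, 42.3 and 45.5 in the trisomic descent and 31.9 in the ancestor on minimal medium, against 54.6 and 54.9 with no medium named. For the arginine and lysine lists H2 lay within the range of the ancestor arrays with no medium named, and the trisomic descent beside the ancestor on minimal medium. For mitosis and daughter-cell genes H2 lay just above the arrays with no medium named, and the trisomic descent between them and the ancestor on minimal medium.

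General stress genes had another order. Their percentile was 67.8 and 73.0 in H2, 34.1 and 35.5 in the trisomic descent and 42.6 in the ancestor on minimal medium. It was 23.7 to 36.1 in H2 relaxed at 30 °C, 49.3 in the trisomic clone and 19.1 and 32.0 in the ancestor with no medium named. H2 after heat and minimal medium was above every other array given here. Whether the medium of the last 18 generations had a part in these differences was not tested.

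**Figure D3:**
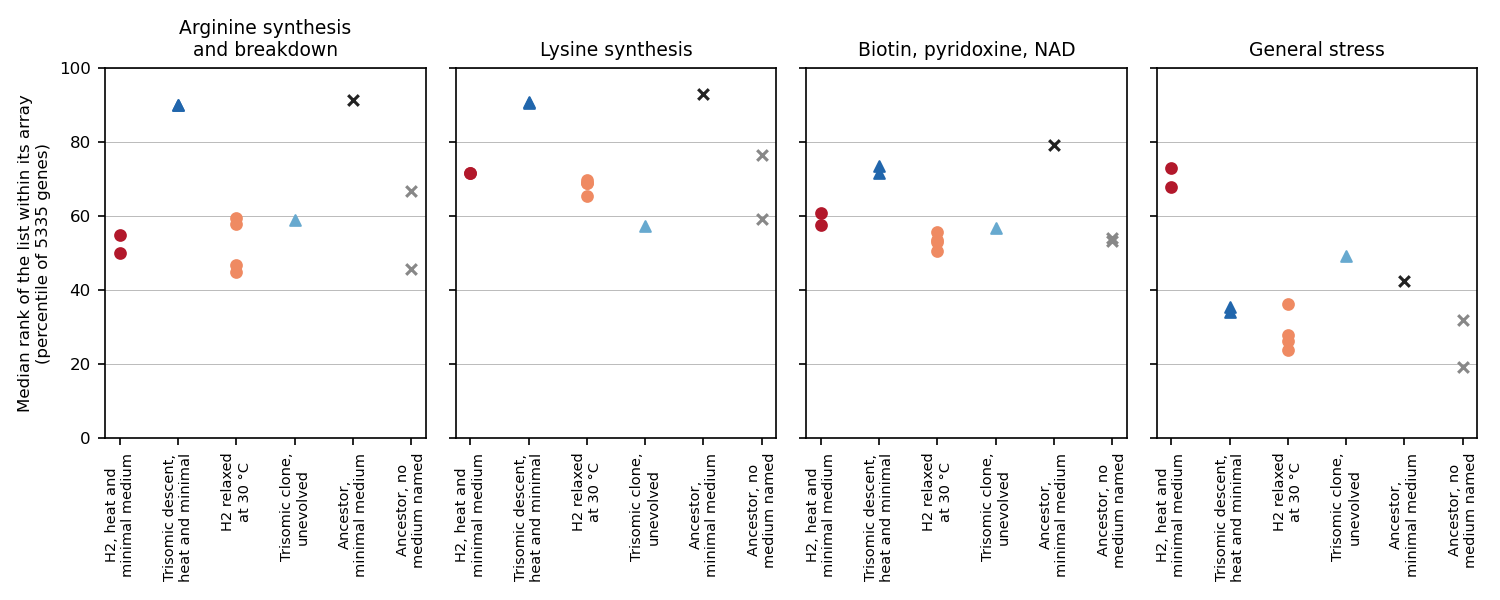
Median percentile rank of 4 gene lists within each array, among 5335 genes. For arginine genes the H2 circles are at 49.9 and 55.0 and the trisomic triangles at 90.1, beside the ancestor on minimal medium at 91.3. For general stress genes H2 is at 67.8 and 73.0, above every other group shown.

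Chromosome III was checked because it was extra in the founding clone. In that clone its genes averaged 0.46 above the diploid ancestor array of the same set. After 1000 generations of heat and minimal medium they averaged −0.07 and −0.06 relative to the ancestor in the trisomic descent, and −0.11 and −0.10 in H2. Neither evolved line showed the raised mean of the clone, although the label of the trisomic descent names the trisomy. H2 minus trisomic descent was −0.04 by the mean and 0.05 by the median over the 145 genes. An exact permutation test of 2 arrays against 2 cannot go below p = 0.333, which was the value here. Of the 145 genes, 25 were higher and 31 lower in H2, and 38.6% called compares with 39.6% of all genes.

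Single genes of chromosome III differed more. FRM2, a nitroreductase-like gene, read 5.95 and 6.04 in H2, against 8.03 and 8.77 in the trisomic descent and 8.64 in the ancestor, a difference of −2.41 ± 0.16. YCL021W-A, AAD3 and YCR023C differed by −1.55 ± 0.15, −1.16 ± 0.12 and −1.15 ± 0.12. TAH1, a cochaperone of Hsp90, differed by −0.86 ± 0.08, and ILV6, the regulatory subunit of the first branched-chain enzyme, by −0.56 ± 0.07. The 2 lines did not overlap in any of these, which were picked by p. The same held for 2090 of the 2110 called genes and for 59.5% of all genes tested.

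By the medians of their lists, markers of haploid mating types were low in all 4 arrays, as they are in diploid cells. The 7 a-specific genes had a median percentile of 4.71 to 8.49 in the 4 arrays and 7.84 in the ancestor, against 84.6 in the haploid ancestor array that expresses them. The 4 alpha-specific genes had a median of 6.64 to 9.35 in the 4 arrays, against 81.4 in the other haploid ancestor array. The 14 haploid-specific genes had a median of 8.10 to 11.2, against 50.6 and 54.4 in the haploid ancestor arrays. Single members stood higher in the 4 arrays. The haploid-specific genes AMN1 and STE12 were at 65.3 to 79.6 and 29.95 to 35.15, and the alpha-specific gene SAG1 at 18.7 to 38.4. Among the a-specific genes 4 were lower in H2, 1 with the 4 arrays alone, 2 without H2 replicate 2 and 2 without trisomic replicate 1. STE6, the exporter of a-factor, read 7.23 and 7.12 in H2, against 8.42 and 8.15 in the trisomic descent and 8.75 in the ancestor, a difference of −1.11 ± 0.12. FUS1, a fusion gene on chromosome III that pheromone induces, differed by −1.33 ± 0.17. It stood on the haploid-specific list, where 3 of 14 tested genes were higher in H2 and 4 lower, with a median of −0.01. The list had 50% of its genes called, against 39.6% of all genes tested. AMN1 on that list went the other way, at 11.27 and 11.17 in H2 against 10.65 and 10.46 in the trisomic descent.

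The H2 arrays did not differ from each other over any stretch of chromosome found by the scan, and the trisomic arrays did. On chromosome XII, from YLR262C-A to YLR354C, 71 of 79 neighbouring genes were higher in trisomic array 1 than in array 2, with a median of 0.35. Relative to the ancestor the stretch stood at 0.11 and 0.16 in the H2 arrays and at 0.50 and 0.12 in the trisomic arrays. Trisomic array 1 was the one that stood apart. The stretch was found by scanning the replicate differences after the values were seen, and it carries no test. Its ends follow from the settings of the scan.

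Trisomic array 1 enters every difference between the lines inside the stretch. Of its 79 genes 5 were called higher and 26 lower in H2. In all 39.2% of them were called, against 39.6% of all genes tested, of which 19.7% were higher and 19.8% lower. These counts use both trisomic arrays, so they do not show how much of the lower side comes from array 1. MET17 lies within the stretch. Its tested neighbours HRI1 and ACO1 were higher in H2 by 0.41 and 0.42. The next genes beyond ACO1, STT4 and UBC12, differed by −0.64 and −0.44. Leaving out the genes of every stretch the scan found left 2081 called genes. Over all genes, 5 differed by over 2-fold between the H2 arrays and 49 between the trisomic arrays.

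**Figure D4:**
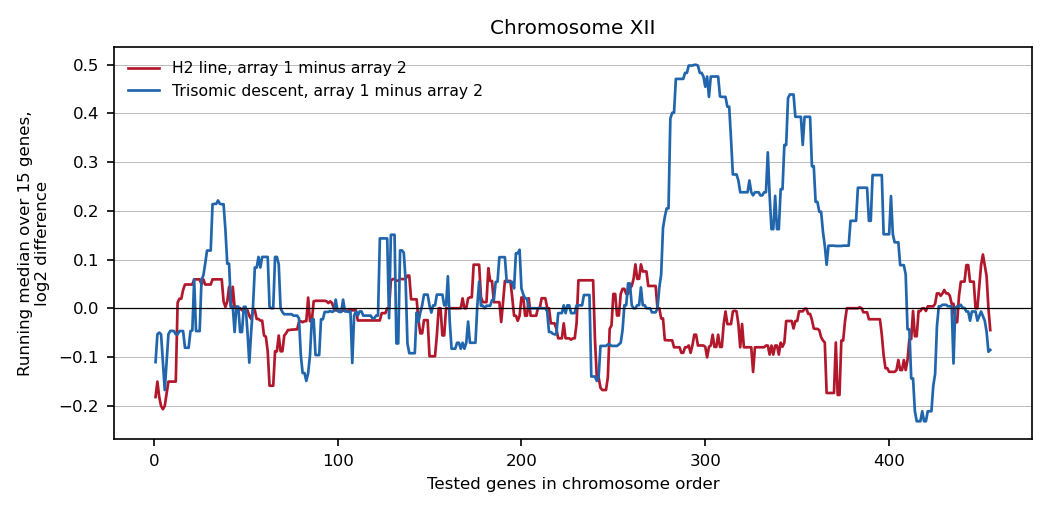
Running median over 15 neighbouring tested genes of the log2 difference between the 2 arrays of each line, in gene order along chromosome XII. The trisomic line is raised over the block of 79 genes marked by the scan, where the median is 0.35. The H2 line stays nearer to 0 there. Past the last gene of the block the trisomic line stays above 0 for a further run of genes, at 0.27 by CCW14.

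The same lines were also compared outside the regime. H2 relaxed at 30 °C minus the unevolved trisomic clone called 166 genes (3.11%), 44 higher (0.825%) and 122 lower (2.29%). Against the ancestor array of their set, relaxed H2 had 4 genes called (0.0750%), 2 higher (0.0375%) and 2 lower (0.0375%), and the clone 24 (0.450%), 21 higher (0.394%) and 3 lower (0.0562%). With 1 array of the clone, its spread was taken from the other groups, so the calls set relaxed H2 against that single array. The count was 2 with no set term, and 12 when the 40 arrays were quantile normalized again together. Of the 166, 71 lay on chromosome III and all 71 were lower in relaxed H2. The chromosome mean relative to the same ancestor array was −0.03 to −0.00 in the relaxed H2 arrays and 0.46 in the clone. Off chromosome III, 57 of the remaining 95 were also called between the lines after heat and minimal medium. In 24 of them the direction was the same, 25.3% of the 95 and 1.17% of the 2054 genes called off chromosome III after the regime. In 33 it was opposite, 34.7% of the 95 and 1.61% of the 2054. Over all genes tested, 19.7% were higher and 19.8% lower after the regime.

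MET17 and ECM1 had the largest differences among the genes called in the same direction in both settings off chromosome III. MET17 read 4.27 to 4.53 in the 4 relaxed H2 arrays, against 10.69 in the trisomic clone and 11.00 in the ancestor array of the same set. The 2 haploid ancestor arrays, normalized in other sets, read 3.41 and 4.63 for MET17. ECM1 read 10.85 to 10.97 in relaxed H2, against 3.90 in the trisomic clone and 10.92 in the ancestor. MET17 was thus low in every H2 array, and ECM1 in every array of the trisomic line. Relaxed H2 minus the clone was −6.28 ± 0.11 and 7.02 ± 0.19 (limma adjusted p = 1.6e-13 and 2.9e-11). For MET17 this was smaller than after the regime, by a difference of differences of −2.01. Both H2 arrays of the regime were below background for MET17, so this value cannot show a change in H2. The trisomic descent read 13.21 and 13.13 after the regime, against 10.69 in the clone. The ancestor array read 12.65 in the minimal-medium set and 11.00 in the set of the clone, which were normalized apart. CNE1 was 0.92 ± 0.13 higher in relaxed H2. ECM13, chosen after its values were seen, was lower in both settings, at −2.47 ± 0.15 after the regime and −1.64 ± 0.16 between relaxed H2 and the clone.

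The remaining large differences after the regime had no single pattern between relaxed H2 and the clone. Relaxed H2 minus the clone was 0.06 for SRL4, 0.01 for SNO1, −0.41 for ARG3 and −0.26 for GRE1, and none of these was called. TMT1 and PEX21 were called in the same direction as after the regime, at −0.44 and −0.67, and ARG4 at −0.67. RTC3, SPI1 and NQM1, higher in H2 after the regime, were lower in relaxed H2 than in the clone, at −1.67, −1.67 and −1.02. Across the 5190 genes off chromosome III the differences in the 2 settings had a correlation of 0.12, and −0.01 without MET17 and ECM1. These genes share arrays within each setting, so the correlation is a description.

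**Figure D5:**
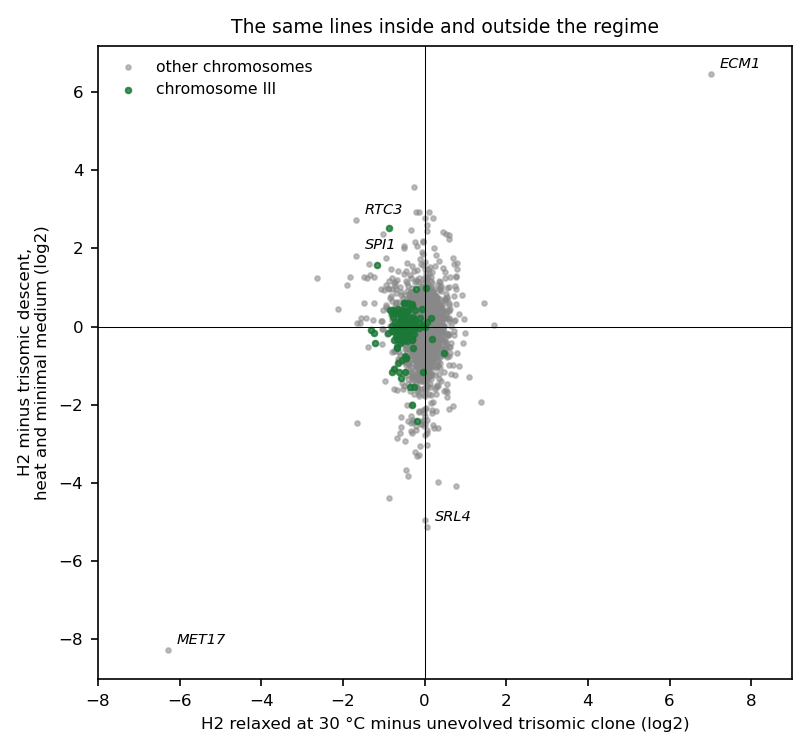
Log2 difference H2 minus trisomic descent after heat and minimal medium (vertical) against H2 relaxed at 30 °C minus the unevolved trisomic clone (horizontal), one point per gene. MET17 at −8.29 and −6.28 and ECM1 at 6.46 and 7.02 lie at opposite corners. SRL4 at −5.13 lies near 0 on the horizontal axis, and chromosome III genes lie left of 0.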

How the data were processed

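RNA of yeast populations, primed with poly(T), was measured on Affymetrix GeneChip arrays. The authors deposited log2 expression values made with RMA, per the submitters' processing notes. For the software version, probe annotation and genome build, the sources used here give nothing. The 40 arrays fell into 9 normalization sets, inferred from identical values shared between arrays, and the 5 minimal-medium arrays formed 1 set. Probe sets were named through the platform annotation and RefSeq R64, giving 5449 genes, with several probe sets of a gene averaged. Background was the 95th percentile of 1746 other-species probe sets.

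limma 3.58.1 in R 4.3.3 was fitted with a trended prior to 23 diploid arrays, with terms for group and set (9 residual degrees of freedom), and p-values were adjusted by Benjamini-Hochberg over 5335 genes. The trisomic clone and the ancestor on minimal medium had 1 array each, so their spread was taken from the other groups. On simulated data with the same groups and sets, 72 of 100 changes of 0.5 and 98 of 100 changes of 1 were recovered. There were 11 false calls among the genes left unchanged. The simulated noise was independent between arrays and had the same spread for a gene in every group, unlike the unequal spreads of the real arrays. A floor for a gene below background on both arrays of a line was the higher of the background and the reading, and a fold against it is written as at least that size.

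Named genes were the 15 largest called, non-overlapping differences each way, the 2 members of each list with the smallest p, and up to 10 called genes of chromosome III. CAR1, CAR2, ARG82, CNE1 and the neighbouring genes were added after their values were seen. The compared groups and gene lists were chosen with earlier results of these data known. The scan for stretches (a running median over 15 genes, 0.25 apart) and the difference of differences were set up after the data were seen, with the scan's settings adjusted. One further stretch it found is not reported here. Alternatives covered the arrays in the fit, the set term, priors, array weights, normalization, filters, left-out replicates and a replicate block.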

Additional observations from a re-analysis of the deposited data

Results flagged for a closer look

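The difference between the lines after heat and minimal medium was set against that between relaxed H2 and the trisomic clone, which used no array in common. The clone had 1 array with its spread taken from other groups, so these values cannot tell that array from its line. By limma the difference of the differences was past the adjusted threshold for 1298 genes (24.3%), 95 of them among the 115 named genes, where its size ran from 0.35 to 5.19 on the log2 scale. The named genes were chosen for large or well-supported differences after the regime, which bears on their share. The 5 genes given next are the named ones called in opposite directions in the 2 comparisons, out of 33 such genes off chromosome III. The difference of differences was 2.54 for TSA2, 3.39 for NQM1, 3.49 for SPI1, 4.39 for RTC3 and −1.12 for PYC1. The first 4 were higher in H2 after the regime and lower in relaxed H2 than in the clone, for example NQM1 at 2.37 and −1.02. PYC1, pyruvate carboxylase, was lower after the regime at −0.52 and higher in relaxed H2 at 0.60.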

How the results depend on the processing

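The 2110 called genes (1053 higher, 1057 lower, 16 lists mostly one way) became 797 (327 higher, 470 lower, 4 lists) with the 4 arrays alone and 798 (324 higher, 474 lower, 4 lists) with the 5 minimal-medium arrays. They became 224 (69 higher, 155 lower, 1 list) with no set term, 1074 (484 higher, 590 lower, 6 lists) with array weights and 1288 (693 higher, 595 lower, 8 lists) with quantile normalization repeated over all arrays. Leaving out 1 replicate gave 1654 to 2242 called, 833 to 1150 higher, 821 to 1092 lower and 8 to 14 lists. H2 minus ancestor, 3092, became 1852 with 5 arrays and 508 with no set term, and 2646 to 3283 without 1 replicate. Trisomic descent minus ancestor, 1804, became 284 with 5 arrays, 38 with no set term and 794 with quantile normalization, and 1569 to 2136 without 1 replicate. Relaxed H2 minus clone, 166, became 77 with all 40 arrays, 2 with no set term, 790 with array weights and 12 with quantile normalization, and 125 to 197 without 1 replicate. The chromosome III mean of −0.04 became a median of 0.047. The fits with fewer arrays have fewer degrees of freedom, and the cause of the other shifts was not tested. No named gene changed direction in any of these settings. Of the 115 named genes, 14 were weaker with the 4 arrays alone and 57 with no set term. With the replicate number as a block, 2475 genes were called (1266 higher, 1209 lower). The labels give no meaning to the number, and with 2 pairs a correlation of 0.403 between same-numbered deviations does not establish pairing.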
